A study of Mus musculus with 2 samples.

Results

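The cells described here are T cells from mouse melanomas that carried RNA of Zbtb16 and in which no invariant natural killer T (iNKT) alpha chain was found. They were selected on measured values: at least 1 UMI (a molecule counted once) of Cd3d, Cd3e and Cd3g together, at least 1 UMI of Zbtb16, no UMI of Foxp3, Cd8a or Cd8b1, and no T cell receptor contig that joined TRAV11 to TRAJ18. By this rule 60 of 9078 quality-filtered cells were chosen, and they are called Zbtb16-positive cells below. The values of the genes and contigs in the rule describe the choice and support nothing here.

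The T cells came from B16 melanomas, wild type or expressing IL-33, grown in the skin of C57BL/6J mice and sorted at day 9 by their surface TCR-β. The methods of the study also name a sort of CD4-positive and CD8-positive T cells before pooling. Cells of both tumors carried hashtag antibodies and were pooled, so that 1 gene expression library, 1 T cell receptor library and 1 hashtag library describe them all. The pool gives 1 sample and no replicates, so cells were not used as replicates and no difference was tested. Zbtb16-positive cells were compared with 1748 CD4 comparison cells, which had Cd4 and no Foxp3, Cd8a, Cd8b1 or Zbtb16 UMI. They were also compared with 67 invariant-chain cells, which met the same CD3, Foxp3 and Cd8 conditions and carried the TRAV11 and TRAJ18 contig. That contig was counted whether productive or not, and 59 of the 67 cells had a productive one.

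Zbtb16 encodes PLZF, the transcription factor that directs innate-like programs in iNKT cells, mucosal-associated invariant T cells and some gamma-delta T cells. Such cells leave the thymus already able to release cytokines quickly, and many carry receptors otherwise typical of natural killer (NK) cells, among them NK1.1, the product of Klrb1c in C57BL/6 mice. iNKT cells in mice pair a nearly constant TRAV11 and TRAJ18 alpha chain with a restricted set of beta chains and recognise lipids shown by CD1d, while mucosal-associated invariant T cells use TRAV1 with TRAJ33.

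The gene expression library held 43420305 mouse UMIs in 14035 barcodes. The Zbtb16-positive cells held 193308 UMIs with a median of 2759 per cell (1218 to 7161) and a median of 1138.5 detected genes. The CD4 comparison cells held 4938526 UMIs with a median of 2476, and the invariant-chain cells 231305 with a median of 3067. Levels below are CPM, the UMIs of a gene scaled by the total UMIs of its group, so 1 UMI equals 5.17 CPM in the Zbtb16-positive cells. Values in brackets are 95% intervals, exact Poisson for levels, exact conditional binomial for ratios and Clopper-Pearson for shares. All intervals and floors cover counting error only.

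Zbtb16 (ENSMUSG00000066687, minus strand of chromosome 9, 48654297 to 48836222 in mm10) was thinly read. Of the 60 cells, 51 had 1 Zbtb16 UMI, 7 had 2, 1 had 3 and 1 had 4, so most sat exactly at the threshold of 1 UMI, and every cell just outside it had 0. A Zbtb16 UMI was found in 96 quality-filtered cells. Of these, 9 held Foxp3 with or without Cd8, 6 held Cd8 without Foxp3, 1 had no CD3 UMI and 20 carried the invariant chain. As a comparison for background, 8 of 2543 Foxp3-positive CD3 cells without Cd8 had a Zbtb16 UMI, a share of 0.315% (0.136 to 0.619) at a median of 2810 UMIs. Whether these UMIs came from free RNA was not tested. The share in CD8 cells was 0.468% (0.172 to 1.02) at a median of 3311 UMIs. Among the 4303 CD3 cells without Foxp3 and Cd8 it was 1.86% (1.48 to 2.31), at a median of 2195 UMIs, and the 60 cells described here were 1.39% (1.07 to 1.79) of them. Of the invariant-chain cells, 20 of 67 had a Zbtb16 UMI, or 29.9% (19.3 to 42.3).

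The absence of the invariant chain is not shown for these cells, most of which had no productive alpha contig. A productive alpha contig was recovered in 11 of 60, or 18.3% (9.52 to 30.4), against 45.6% (43.2 to 48.0) of the CD4 comparison cells. For the other 49 the rule reads a missing contig as a missing chain. Taking all 80 Zbtb16 cells of the same gate, those with the invariant chain included, the share with a productive alpha contig was 27 of 80, or 33.8% (23.6 to 45.2). A productive beta contig was found in 38 of 60, or 63.3% (49.9 to 75.4), close to the 61.6% of the CD4 comparison cells. UMIs of the Trav11 gene in the gene expression library were found in 0 of 60 Zbtb16-positive cells, which allows a share of up to 5.0% (5.96% by the Clopper-Pearson limit), and in 7 of 67 invariant-chain cells, or 10.4% (4.30 to 20.3). The limit is on cells with a UMI, and since most cells that carry the chain had none, it does not bound how many of the 60 carry it.

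As a group, the Zbtb16-positive cells had higher levels of NK receptor, Il4 and gamma-chain transcripts than the CD4 comparison cells, near those of the invariant-chain cells. Klrb1c and Il4 were found together in 1 cell, a count that was not compared with chance. Klrb1c was 13.6-fold higher (7.07 to 25.2) than in the CD4 comparison cells, Il4 11.2-fold (6.36 to 19.0) and Tcrg-C4 36.5-fold (17.5 to 78.1). Ratios to the invariant-chain cells were 1.36 (0.637 to 2.92) for Klrb1c, 1.01 (0.535 to 1.87) for Il4 and 0.886 (0.471 to 1.64) for Tcrg-C4. Of 10 compared genes of the helper and inhibitory list, 6 were at least 2-fold lower than in the CD4 comparison cells. Over all 3801 compared genes the share was 6.81%, and both counts are a description. Tnfrsf4 and Ctla4 were among the 6. Lag3 was too, but it had 1 UMI and was compared only through its level in the CD4 comparison cells.

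Genes were compared if the average of the 2 group levels reached 30 CPM. Of these 3801 genes, 137 (3.6%) were at least 2-fold higher in the Zbtb16-positive cells than in the CD4 comparison cells and 259 (6.81%) at least 2-fold lower, with a median ratio of 0.989. Against the invariant-chain cells, 188 of 3739 genes (5.03%) were higher and 222 (5.94%) lower, with a median ratio of 0.979. These counts hold much sampling noise, since a gene at 30 CPM rests on 5.80 UMIs in the Zbtb16-positive cells. A gene near 0 in a group passes this minimum through the other group, so counts and medians over the genes compared in each list below are a description. With a minimum of 60 CPM, which leaves fewer genes to compare, the counts against the CD4 comparison cells were 34 and 94.

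The 15 highest ratios to the CD4 comparison cells belonged to Tcrg-C4, Rbpms, Tcrg-C2, Klra1, Klrb1c, Qpct, Il4, Lmo4, Chn2, Xcl1, Klrk1, Ly6c2, Prrt1, Rnf144a and Drosha. Rbpms, an RNA-binding protein, stood at 98.3 CPM against 2.83 (34.7-fold, 16.5 to 74.7) and at 73.5 CPM in the invariant-chain cells. Lmo4, an adapter of LIM-domain transcription complexes, stood at 197 CPM against 21.9 and at 242 in the invariant-chain cells. Ly6c2, a surface protein of memory and effector T cells, stood at 947 CPM against 171, with 41 of its 183 UMIs in 1 cell, and its ratio without that cell was 4.45. In the 11 cells with a productive alpha contig the Ly6c2 ratio was 1.19. Of these 15 genes, Rnf144a, a ubiquitin ligase, was also higher than in the invariant-chain cells, at 56.9 CPM against 13.0 (4.39-fold, 1.16 to 24.5). The Rnf144a ratio to the CD4 comparison cells was 1.70 after thinning of every cell to 1500 UMIs. For the other 14 the interval of the ratio to the invariant-chain cells held 1 or, for Ly6c2, reached 0.997.

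**Figure D1:**
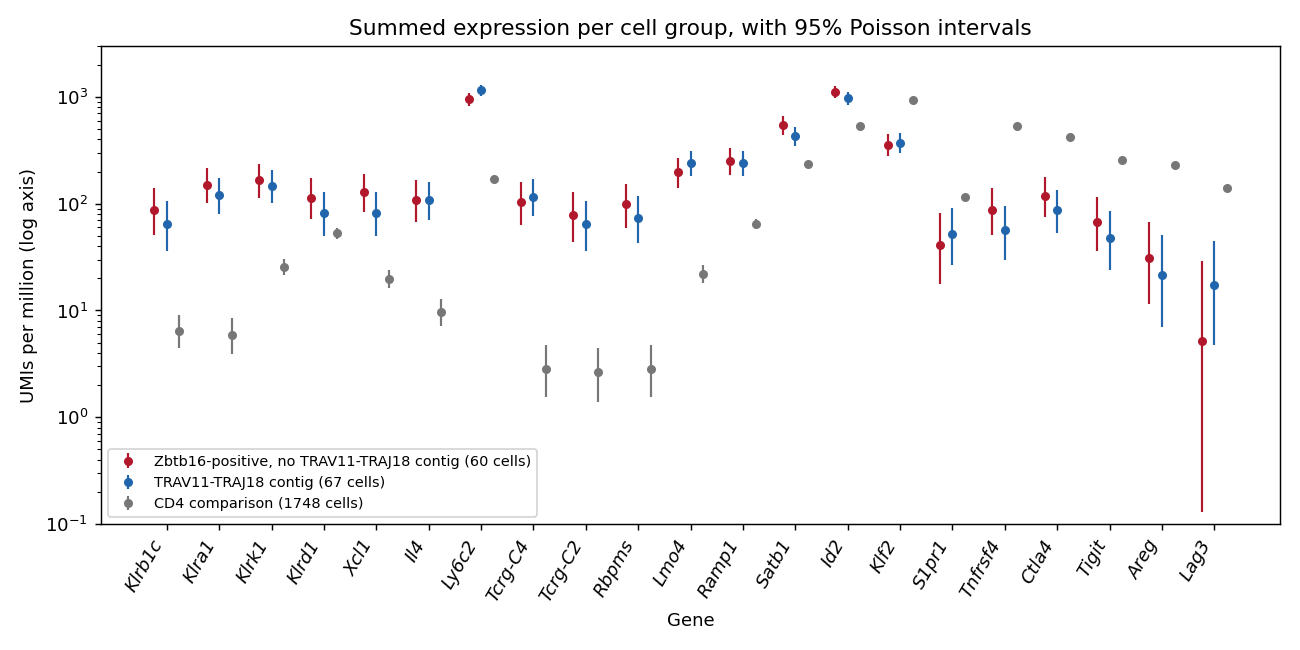
Level in CPM on a log axis of genes named in the text, in the 60 Zbtb16-positive cells, the 1748 CD4 comparison cells and the 67 invariant-chain cells, with 95% Poisson intervals as bars. Klrb1c, Il4 and Tcrg-C4 lie far above the CD4 comparison cells and beside the invariant-chain cells.

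The 15 lowest ratios belonged to H2-Aa, Hba-a1, Mt1, Ifitm2, Hbb-bs, Klrg1, Cxcl2, Lag3, Lyz2, Penk, Eva1b, Ccl8, Tnfsf8, Srebf2 and Bnip3. The first 7 had no UMI in the Zbtb16-positive cells, where the floor is 3 UMIs over the group, or 15.5 CPM. Klrg1, an inhibitory receptor of terminally differentiated effector cells, was at least 5.02-fold lower, and Mt1, a metallothionein, at least 5.10-fold lower, although its ratio was 0.656 when cells with more than 2500 detected genes were kept. The highest Klrg1 ratio under the alternatives to this processing was 0.374. Ifitm2, an interferon-induced membrane protein, was at least 5.64-fold lower and had no UMI in the invariant-chain cells either. Lag3, an inhibitory receptor that binds MHC class II, had 1 UMI, with a ratio of 0.0371 (0.000939 to 0.208). Penk, the precursor of enkephalin, also had 1 UMI, with a ratio of 0.0531 (0.00134 to 0.297). Lyz2, the lysozyme of myeloid cells, had 1 UMI too (0.0503, 0.00127 to 0.281), and its ratio was 1.07 after thinning of every cell to 1500 UMIs. That thinning left 31 Zbtb16-positive cells. Genes of other cell types made up much of the rest, and H2-Aa, Cxcl2 and Ccl8 are best known from antigen-presenting and myeloid cells, whose marker lists are given further on.

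Genes for NK receptors were higher as a sum. The list of 15 genes had a summed level of 2.53 times that of the CD4 comparison cells (2.13 to 2.99) and 1.2 times that of the invariant-chain cells (0.957 to 1.52). Of 6 listed genes with enough counts, 4 were higher and 1 lower, with a median ratio of 4.30. Over all 3801 compared genes, 3.6% were higher and 6.81% lower, the shares that stand beside this count and those of the lists below. Against all CD3 cells without Foxp3, Cd8 and Zbtb16 the sum was 1.31-fold higher, and it was 0 in the 9 cells with at least 2 Zbtb16 UMIs. Klrb1c (ENSMUSG00000030325, minus strand of chromosome 6, 128778485 to 128789215) had 17 UMIs in 9 of 60 cells, or 15% (7.10 to 26.6), against 1.32% of the CD4 comparison cells and 0.197% of the Foxp3-positive cells. Counted at 1500 UMIs per cell, in the 58 cells that deep, the share was 11.3%, against 0.788% in 1427 CD4 comparison cells. Klra1, an inhibitory Ly49 receptor for MHC class I, stood at 150 CPM against 5.87, with 10 of 29 UMIs in 1 cell. Klrk1, which encodes the activating receptor NKG2D, stood at 166 CPM against 25.7 (6.44-fold, 4.23 to 9.55), and Klrd1, the CD94 partner of NKG2 receptors, at 114 against 52.8. Tyrobp, the adapter DAP12, was the listed gene that was lower, at 31.0 CPM against 80.6. Leaving out Tyrobp and Fcer1g, 23 of 60 cells (38.3%, 26.1 to 51.8) had a UMI of a listed gene, against 17.8% of CD4 comparison cells, 49.3% of invariant-chain cells and 71.1% of CD8 cells.

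Il4, the cytokine of type 2 responses that iNKT cells also release, had the highest ratio of the listed cytokine genes with enough counts. It had 21 UMIs in 14 of 60 cells, or 23.3% (13.4 to 36.0), against 2.06% of the CD4 comparison cells, 25.4% of the invariant-chain cells and 0.433% of the Foxp3-positive cells. Counted at 1500 UMIs per cell, the share was 12.4% against 1.21%. All 21 UMIs lay in cells with no productive alpha contig, and none in the 11 cells for which another alpha chain is shown. Most other type 2 genes were not higher, Il17rb excepted. Il5 and Il13 had no UMI, Gata3, the lineage factor of type 2 cells, stood at 114 CPM against 122, and Areg, the growth factor amphiregulin, at 31.0 against 232 (0.134, 0.0490 to 0.292). The Areg ratio was 0.610 without cells that held an Il2ra or Ikzf2 UMI. Il1rl1, the IL-33 receptor, had 1 UMI (0.136, 0.00342 to 0.766). Il17rb, the IL-25 receptor, had 5 UMIs in 5 cells, at 25.9 CPM against 1.42 (18.2-fold, 4.57 to 66.8), and had none in Cd4-positive cells of the group or after thinning of every cell to 1500 UMIs. The type 2 list of 10 genes summed to 0.711 of the level in the CD4 comparison cells (0.577 to 0.869) and 0.567 of that in the invariant-chain cells. In the 9 cells with at least 2 Zbtb16 UMIs the sum was 1.24 of the CD4 comparison cells. Of 5 genes with enough counts, 1 was higher and 2 lower, with a median ratio of 0.931.

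The type 1 list of 14 genes was near the CD4 comparison cells as a sum, at a ratio of 0.95 (0.879 to 1.03), and at 0.856 (0.775 to 0.946) of the invariant-chain cells. All 14 genes had enough counts, of which 3 were higher and 1 lower, with a median ratio of 1.14. The sum varied with the cells taken, from 0.303 in the 9 cells with at least 2 Zbtb16 UMIs to 1.5 after thinning of every cell to 1500 UMIs, and was 1.19 without Ccl5. Xcl1, a chemokine that draws in cross-presenting dendritic cells, stood at 129 CPM against 19.8 (6.52-fold, 4.02 to 10.2). Il12rb2, a chain of the IL-12 receptor, stood at 72.4 against 24.1 (3.01-fold, 1.59 to 5.24). Ifng, at 87.9 CPM against 92.5, and its regulator Tbx21, at 56.9 against 31.8, were within 2-fold. Some genes of the list rested largely on single cells. Gzma was 2.02-fold higher with 21 of 25 UMIs in 1 cell and had a ratio of 0.328 without it. Ccl4 had 51 of 58 UMIs in 1 cell, and its ratio fell from 1.87 to 0.229 without it. It was the same cell for Gzma and Ccl4, a cell with Klrb1c and no T cell receptor contig.

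A type 17 program was not detectable at this depth. The list of 19 genes summed to 1.03 of the level in the CD4 comparison cells (0.856 to 1.23) and 0.987 of that in the invariant-chain cells. In the Zbtb16-positive cells 10 of the 19 had no UMI, among them the cytokine genes Il17a and Il17f, and Il23r. Il22, the other listed cytokine gene, had 2 UMIs in 1 cell. Of 3 genes with enough counts, Ramp1, a receptor chain for the neuropeptide CGRP, was higher at 253 CPM against 64.6 (3.92-fold, 2.84 to 5.31) and Maf was lower at 98.3 against 251 (0.391, 0.235 to 0.613), with a median ratio of 1.42. Without Ramp1 the list summed to 0.704 (0.555 to 0.881), and the invariant-chain cells had Ramp1 at 242 CPM.

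Genes of innate-like T cell development were mixed, with Id2 carrying much of the sum. They summed to 1.15 times the CD4 comparison cells (1.06 to 1.24) and 1.11 times the invariant-chain cells, but to 0.945 of the CD4 comparison cells (0.859 to 1.04) without Id2. Of 18 of the 21 genes with enough counts, 3 were higher and 1 lower, with a median ratio of 0.906. Id2, an inhibitor of E proteins that innate-like lineages need, stood at 1117 CPM against 531 (2.11-fold, 1.82 to 2.42), and its relative Id3 at 62.1 CPM (2.07-fold, 1.05 to 3.73). The Id2 ratio was 1.52 after thinning of every cell to 1500 UMIs. Il18r1, a chain of the IL-18 receptor, stood at 233 CPM against 91.1 (2.55-fold, 1.84 to 3.48) and at 134 in the invariant-chain cells. Slamf1, whose family of receptors is needed when iNKT cells are selected, was the gene that was lower, at 20.7 CPM against 58.7 (0.352, 0.0954 to 0.912), and its ratio was 0.868 in the 11 cells with a productive alpha contig.

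Naive T cell genes were lower as a sum, at 0.787 of the CD4 comparison cells (0.708 to 0.872), and at 1.04 of the invariant-chain cells. Of 11 of the 12 genes with enough counts, 1 was higher and 5 lower, with a median ratio of 0.841. The sum was not lower in the 9 cells with at least 2 Zbtb16 UMIs (1.03) or the 11 with a productive alpha contig (1.13). Klf2, a factor that keeps T cells circulating, stood at 357 CPM against 927 (0.385, 0.299 to 0.488). The egress receptor S1pr1 stood at 41.4 against 115, and the lymph node homing receptor Ccr7 at 51.7 against 116. In the 9 cells with at least 2 Zbtb16 UMIs the S1pr1 ratio was 1.51. Ccr7 had 5 of 10 UMIs in 1 cell, with a ratio of 0.229 without it, and stood at a ratio of 1.14 where CD3 and Cd4 were required in both groups. Satb1, a chromatin organiser active in the thymus, went the other way, at 543 CPM against 237 (2.30-fold, 1.86 to 2.81).

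Helper and inhibitory genes were the lowest of the T cell programs, next to the Treg list. The 17 helper and inhibitory genes summed to 0.566 of the CD4 comparison cells (0.509 to 0.628) and 1.02 of the invariant-chain cells, and to 0.326 of the CD4 comparison cells (0.275 to 0.384) without Ltb, the most abundant gene. Of 10 genes with enough counts none was higher and 6 were lower, with a median ratio of 0.367. Tnfrsf4, the costimulatory receptor OX40, stood at 87.9 CPM against 530 (0.166, 0.0965 to 0.266), with 10 of 17 UMIs in 1 cell and a ratio of 0.0704 without it. Tigit, an inhibitory receptor, stood at 67.3 CPM against 258. Cxcr5, Bcl6, Il21 and Il2, genes of follicular help and T cell growth, had no UMI. The Treg list of 9 genes stood at 0.439 (0.367 to 0.520), with 2 of 6 genes lower, none higher and a median ratio of 0.581. Those lower were Ctla4, a brake on costimulation that the helper and inhibitory list also holds, at 119 CPM against 425, and Tnfrsf9, the receptor 4-1BB, at 93.1 against 376.

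The remaining lists lay within 1.5 times of the CD4 comparison cells. T cell identity genes summed to 0.747 (0.691 to 0.807), with 2 of 13 lower, none higher and a median ratio of 0.781. The adhesion receptor Cd2 stood at 233 CPM against 557, and Cd5, which dampens receptor signals, at 124 against 289. Glucocorticoid targets summed to 1.23 (1.09 to 1.39), or 0.862 (0.712 to 1.03) without the most abundant gene, Dusp1, with 1 of 6 lower, Tsc22d3 at 77.6 CPM against 189, and a median ratio of 1.06. Immediate early and heat shock genes, which respond quickly to stimulation and stress, summed to 1.18 (1.11 to 1.26), with none of 8 past 2-fold and a median ratio of 1.2.

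**Figure D2:**
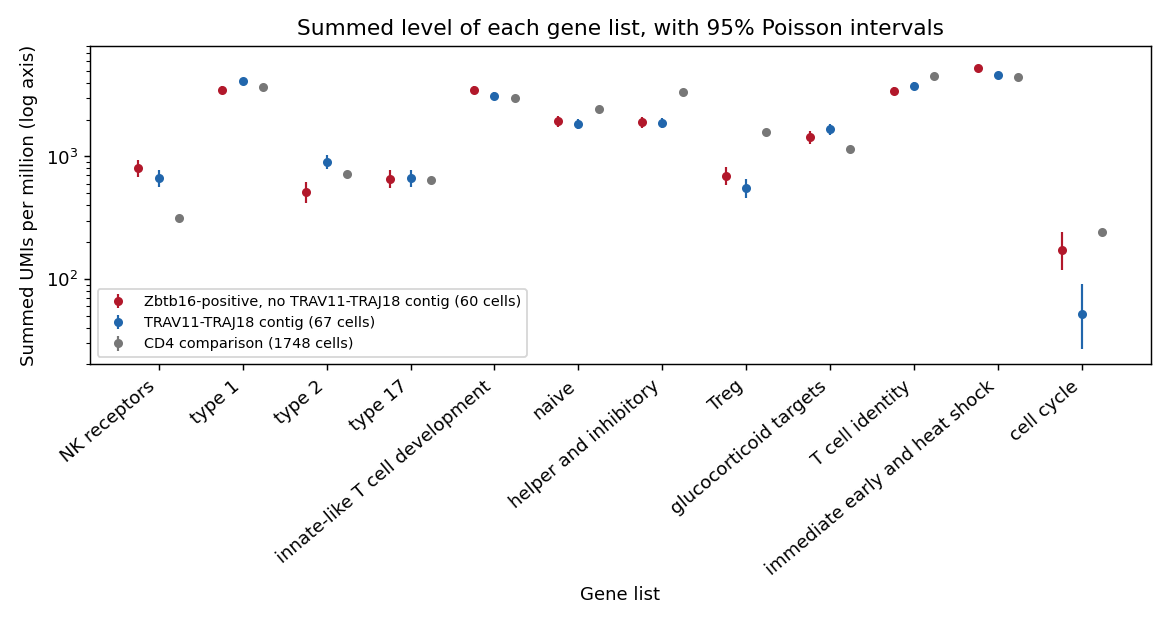
Summed level in CPM on a log axis of each gene list in the 60 Zbtb16-positive cells, the CD4 comparison cells and the invariant-chain cells, with 95% Poisson intervals as bars. The NK receptor list stands at 802 CPM in the Zbtb16-positive cells and 317 in the CD4 comparison cells, and the Treg list at 698 and 1591.

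Constant-region transcripts of the gamma chain were a shared trait of the Zbtb16-positive and the invariant-chain cells. A UMI of Tcrg-C1, Tcrg-C2 or Tcrg-C4 was found in 22 of 60 cells, or 36.7% (24.6 to 50.1), against 38.8% (27.1 to 51.5) of the invariant-chain cells, 1.43% (0.928 to 2.10) of the CD4 comparison cells and 0.472% of the Foxp3-positive cells. All 3 genes lie on chromosome 13, with Tcrg-C1 at 19214103 to 19217024, Tcrg-C2 at 19304649 to 19307551 and Tcrg-C4 at 19344558 to 19352756. Tcrg-C2 stood at 77.6 CPM against 2.63 and Tcrg-C1 at 36.2 against 2.83. Few UMIs of delta-chain genes were found, and a level under the floor of 15.5 CPM can leave no UMI. Over the gamma-delta list of 7 genes the level was 222 CPM against 11.9, Tcrg-C4 was the most abundant, 3 genes had no UMI (Trdv4, Sox13 and Cd163l1) and Trdc had 1. Productive beta contigs were present in 38 of the 60 cells, and the cells had been sorted for TCR-β.

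Markers of most other cell types were at or below their level in the CD4 comparison cells, with the NK list at a ratio of 2.17 (0.965 to 4.28), the fibroblast and endothelial list at 1.12 (0.528 to 2.09), and the gamma-delta list, given above, at 18.6. Without cells that held 2 or more UMIs of the myeloid, B cell, NK or melanocyte lists, 53 Zbtb16-positive cells were left, with ratios of 11.2 for Klrb1c, 9.60 for Il4 and 4.83 for the NK receptor list. The part of the other lists in the results was not tested. Of 10 myeloid genes 7 had no UMI in the Zbtb16-positive cells and the list summed to 15.5 CPM against 246, with 1 UMI each of Lyz2, C1qa and Cd68. Of 7 dendritic genes 6 had no UMI, and all 17 UMIs (87.9 CPM against 420) came from Cd74. Of 7 NK genes 4 had no UMI, the defining Ncr1 and Eomes among them, and the sum was 46.6 CPM against 21.5, with Klre1 the most abundant. All 3 Prf1 and both Klra8 UMIs lay in the cell that held most of the Gzma and Ccl4 UMIs. Of 5 innate lymphoid genes 4 had no UMI, and Kit gave the sum of 10.3 CPM against 32.0. Of 6 B cell genes 4 had no UMI, Cd79a and Ms4a1 among them, and the sum was 103 CPM against 173, mostly Ighm. Of 6 melanocyte genes 5 had no UMI, and Dct gave the sum of 5.17 CPM against 19.0. Of 5 fibroblast and endothelial genes 4 had no UMI, and Pecam1 gave the sum of 51.7 CPM against 46.4. All 4 globin genes had no UMI, against 314 CPM in the CD4 comparison cells. The Treg markers Il2ra and Ikzf2 summed to 290 CPM against 393 and against 151 in the invariant-chain cells (1.91-fold, 1.23 to 3.01), mostly Ikzf2, and the CD4 marker Cd40lg stood at 87.9 against 149.

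The coreceptor Cd4 was not part of the choice of the Zbtb16-positive cells. A Cd4 UMI was found in 17 of 60, or 28.3% (17.5 to 41.4), in 28.4% (18.0 to 40.7) of the invariant-chain cells and in 40.4% (38.9 to 41.9) of the CD3 cells without Foxp3, Cd8 and Zbtb16. The intervals of the Zbtb16-positive and the invariant-chain cells overlap over most of their length.

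The beta chains leaned toward TRBV13-2 and TRBV29, which iNKT cells use. TRBV13-2 was found in 13 of 38 Zbtb16-positive cells with a productive beta contig, or 34.2% (19.6 to 51.4), in 33.3% (22.0 to 46.3) of the invariant-chain cells and in 13.5% (11.5 to 15.7) of the CD4 comparison cells. TRBV29 was found in 8 of 38, or 21.1% (9.55 to 37.3), against 38.1% (26.1 to 51.2) and 2.60% (1.74 to 3.74). TRBV1, another segment of iNKT cells, was not more frequent, with 3 of 38 or 7.89% (1.66 to 21.4) against 8.55%, and TRBV13-3 stood at 5.26% (0.644 to 17.7) against 4.46%. TRBV13, TRBV29 and TRBV1 segments, known from iNKT cells and grouped here after their values were seen, were found together in 30 of 38 cells, or 78.9% (62.7 to 90.4). The same group was found in 95.2% (86.7 to 99.0) of the invariant-chain cells, 33.6% (30.7 to 36.5) of the CD4 comparison cells, 40.3% of the Foxp3-positive cells and 27.7% of the CD8 cells. TRBV20 and TRBV5 were each found in 0 of 38, which allows a share of up to 7.89%, or 9.25% by the Clopper-Pearson limit. They were found in 9.39% (7.71 to 11.3) and 8.64% (7.03 to 10.5) of the CD4 comparison cells. Both intervals reach below these limits, and the differences were not tested.

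**Figure D3:**
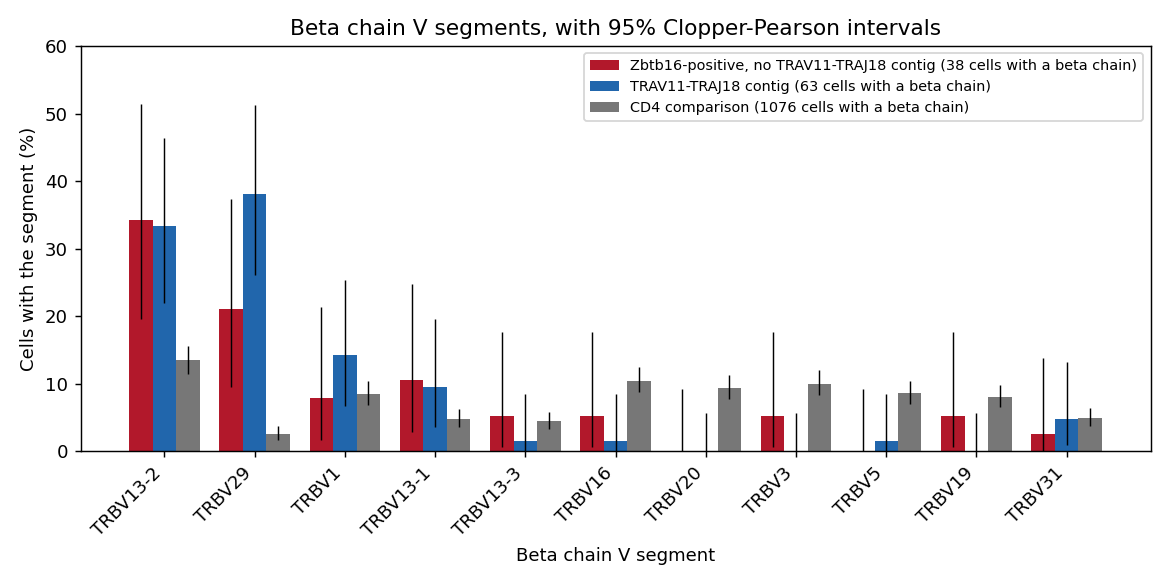
Percent of cells with a productive beta contig that used each TRBV segment, in the Zbtb16-positive, CD4 comparison and invariant-chain cells, with 95% Clopper-Pearson intervals as bars. TRBV29 stands at 21.1% in the Zbtb16-positive cells and 2.60% in the CD4 comparison cells.

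The grouped segments were counted with and without a recovered alpha chain. Of 29 Zbtb16-positive cells with a beta and no productive alpha contig, 25 used the grouped segments, or 86.2% (68.3 to 96.1). Of the 9 with both chains, 5 did, or 55.6% (21.2 to 86.3). These intervals overlap, so no difference is shown.

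No beta chain was shared within the group. The 42 productive beta contigs had 42 different CDR3 sequences of 33 to 51 bases, none of them in an invariant-chain cell, and 1, with TRBV16, was also found in 8 other cells. The 8 TRBV29 sequences are shown because, among the segments whose shares were compared, this one had the largest ratio to the CD4 comparison cells. Lower case marks the 10 bases that all 8 share at the 5′ end. Capitals mark the rest, which differs in length and in which some of the sequences still share stretches.
TRBV29 with TRBJ1-2: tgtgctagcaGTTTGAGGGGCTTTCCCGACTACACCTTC
TRBV29 with TRBJ1-3: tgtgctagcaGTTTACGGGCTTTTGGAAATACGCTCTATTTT
TRBV29 with TRBJ1-4: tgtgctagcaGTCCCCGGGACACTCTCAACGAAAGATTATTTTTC
TRBV29 with TRBJ1-5: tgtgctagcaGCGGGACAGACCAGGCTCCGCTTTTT
TRBV29 with TRBJ2-4: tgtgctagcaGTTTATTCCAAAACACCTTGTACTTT
TRBV29 with TRBJ2-4, another cell: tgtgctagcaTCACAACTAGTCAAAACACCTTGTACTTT
TRBV29 with TRBJ2-5: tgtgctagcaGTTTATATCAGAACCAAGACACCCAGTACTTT
TRBV29 with TRBJ2-7: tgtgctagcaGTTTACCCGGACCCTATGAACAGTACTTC

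The recovered alpha chains were diverse. The 12 productive alpha contigs used 11 different TRAV segments, and none equalled an invariant-chain CDR3 or joined TRAV1 to TRAJ33. Of these contigs 5 rested on 1 UMI. A TRAJ18 segment was seen once, in a non-productive contig with TRAV5-1 and 2 UMIs. The chain the rule looks for is shown by its 4 commonest CDR3 sequences in the invariant-chain cells, found in 21, 15, 11 and 6 contigs, which differ at position 12 from the 5′ end, in capitals.
TRAV11 and TRAJ18, 21 contigs: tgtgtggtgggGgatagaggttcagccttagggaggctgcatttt
TRAV11 and TRAJ18, 15 contigs: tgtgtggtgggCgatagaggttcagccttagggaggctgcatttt
TRAV11 and TRAJ18, 11 contigs: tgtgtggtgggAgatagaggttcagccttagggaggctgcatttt
TRAV11 and TRAJ18, 6 contigs: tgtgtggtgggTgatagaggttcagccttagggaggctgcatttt

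For contrast, these are the alpha CDR3 sequences of Zbtb16-positive cells that rest on at least 3 UMIs, in lower case throughout since no part of them is set apart.
TRAV12D-2 and TRAJ12: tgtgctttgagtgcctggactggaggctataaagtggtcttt
TRAV13-1 and TRAJ21: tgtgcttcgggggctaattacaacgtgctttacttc
TRAV13-2 and TRAJ32: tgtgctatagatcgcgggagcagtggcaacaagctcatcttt
TRAV9-1 and TRAJ37: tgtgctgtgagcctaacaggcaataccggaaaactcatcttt

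No Zbtb16-positive cell belonged to an expanded clonotype as the contig file names them. Of the 40 Zbtb16-positive cells with a clonotype, 0 belonged to one with 2 or more quality-filtered cells, which allows a share of up to 7.5%, or 8.81% by the Clopper-Pearson limit. The share was 9.70% (8.06 to 11.5) in the CD4 comparison cells, 2.99% (0.364 to 10.4) in the invariant-chain cells and 23.1% (20.5 to 26.0) in the CD8 cells. The Clopper-Pearson limit lies within the intervals of the CD4 comparison and invariant-chain cells, while 7.5% lies below that of the CD4 comparison cells. No clonotype held 2 Zbtb16-positive cells. By any beta CDR3 shared with another cell, a definition added after seeing the data, 1 of 38 cells, the TRBV16 cell, was expanded, or 2.63% (0.0666 to 13.8), against 23.4% (20.9 to 26.1) of the CD4 comparison cells.

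Within the group, 123 listed genes with at least 5 UMIs were compared between cells with and without a recovered alpha chain. No difference was tested, and the genes named were chosen after their values were seen, for ratios far from 1. The 11 cells with a productive alpha contig held 39247 UMIs and the other 49 held 154061. Il4 had 0 UMIs in the 11 cells, whose floor is 76.4 CPM, and 21 UMIs or 136 CPM in the 49. The ratio of the 11 cells to the CD4 comparison cells was 3.93 for Klrb1c, which rests on 1 UMI and is under the floor, and 0.964 for Klrd1, which rests on 2, and Drosha and Tcrg-C1 had no UMI in them. Il7r, the IL-7 receptor of long-lived T cells, was 3.20-fold higher with an alpha contig (1.99 to 5.11), and the costimulatory receptor Cd28 2.02-fold higher (1.08 to 3.66). Ly6c2 was lower with an alpha contig, at a ratio of 0.179 (0.0763 to 0.361), as were Ccl5 at 0.393 (0.238 to 0.616), the granzyme gene Gzmb at 0.248 (0.0785 to 0.605) and the beta constant gene Trbc1 at 0.115 (0.00284 to 0.688). A large part of the Ccl5 UMIs without an alpha contig lay in 1 cell, as given further on. Ccl4 stood at 0.0689 (0.00171 to 0.399), with 51 of its 58 UMIs in 1 cell. Lta, which encodes lymphotoxin alpha, stood at 7.85 (1.13 to 86.8), but all 4 of its UMIs in the 11 cells lay in 1 cell. The activation genes Fos and Jun went opposite ways, at 1.80 (1.28 to 2.50) and 0.583 (0.340 to 0.948). NK receptor transcripts were found in 3 of 11 and 20 of 49 of these cells, and gamma-chain transcripts in 4 of 11 and 18 of 49, with overlapping intervals.

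Cells were also split by Zbtb16 itself, a value of the rule, into 9 with at least 2 UMIs (median depth 3950 UMIs) and 51 with 1 (2709). None of the 9 had an NK receptor transcript (0 to 33.6%; Fcer1g and Tyrobp not counted), against 23 of the 51 (31.1 to 59.7%), so Klrb1c, Klra1, Klrk1 and Klrd1 were read from cells with 1 Zbtb16 UMI. Gamma-chain transcripts were found in 5 of the 9 (21.2 to 86.3%) and in 17 of the 51 (20.8 to 47.9%), and both pairs of intervals overlap. Il17rb had 4 of its 5 UMIs in the 9 cells and S1pr1 6 of 8. The ratio of S1pr1 to the CD4 comparison cells was thus 1.51 in the 9 cells, and Xcl1, Qpct, Drosha and Tcrg-C1 had no UMI in them. The 9 cells hold 34772 UMIs, so their floor is 86.3 CPM, and with 9 cells these differences were not tested.

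The 9 Klrb1c-positive cells also stood apart from the other 51. Xcl1 stood at 724 CPM (429 to 1145) in them and 41.6 (16.7 to 85.6) in the rest, Klrk1 at 684 against 89.0 and Ccl5, a chemokine of effector and memory T cells, at 5151 against 611, with 71 of the 231 Ccl5 UMIs of the whole group in 1 cell. Lmo4 had 0 UMIs in the 9 cells, whose floor is 121 CPM, against 226 CPM in the rest. Il4 and Klrb1c were found together in 1 cell. Il4 and Ifng were found together in 4 cells, and Klra1 and Klrb1c in 2.

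Gamma-chain transcripts were found in 11 of 17 Cd4-positive cells of the group, or 64.7% (38.3 to 85.8), and in 11 of the other 43, or 25.6% (13.5 to 41.2). All 7 Tcrg-C1 UMIs lay in Cd4-positive cells. Ctla4 stood at 250 CPM (140 to 412) with Cd4 and 60.1 (25.9 to 118) without, with its 15 UMIs in 3 of the 17 Cd4-positive cells. The intervals overlap for the gamma-chain share and do not for Ctla4, and neither difference was tested.

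The tumor of origin was known for few cells, since the hashtag library held 1730 tag UMIs over 19867 barcodes. So few tag UMIs leave it unclear whether the deposited tag matrix is complete, and the tag shares below hold for the tagged cells alone. All 60 Zbtb16-positive barcodes were also in the hashtag library and 40 in the T cell receptor library, but 9 had a tag UMI, each with 1. All 9 carried a B16 tag, 6 of the first tag and 3 of the second. They made up 9 of 355 B16-tagged CD3 cells without Foxp3 and Cd8, or 2.54% (1.17 to 4.76). Of 49 such cells with a B16-IL33 tag 0 were Zbtb16-positive, which allows a share of up to 6.12% (7.25% by the Clopper-Pearson limit), so a difference between the tumors was not detectable at this depth. The invariant-chain cells likewise had 8 B16 tags and 0 of B16-IL33.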

How the data were processed

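The deposited matrices hold raw UMI counts per gene or tag and barcode, and the deposited contig table holds UMI counts per contig. The matrix header names Cell Ranger 3.1.0 and the submitters' processing notes name 6.1.1, with the mm10 build. Mouse genes were used. Barcodes with 200 to 2500 detected genes and under 5% mitochondrial UMIs were kept. No doublet caller was run; 4 of the 60 Zbtb16-positive cells (6.67%) had more than 1 productive beta contig, against 5.78% of CD4 comparison cells. Of 14035 gene expression barcodes, 11756 were in the hashtag library and 6665 in the T cell receptor library. Members, gene lists and cell type markers were chosen with earlier results of these data known. Named genes were those of the lists described by role, and the 15 genes with the greatest and the 15 with the smallest ratio where the average of the group levels was 30 CPM or more, without the genes of the rule, Cd4 and receptor segment genes. Genes and features singled out beyond these were chosen after their values were seen. The listed symbol Cd244a was not matched. Single values of some listed genes are not reported here. Of the comparison cells, 15 carried the invariant chain and 42 had no CD3 UMI. TRBV13-2 includes contigs the file names TRBV12-2+TRBV13-2. Expected shares at 1500 UMIs per cell come from the hypergeometric distribution, over cells at least that deep. A cell was given a tumor when it had tag UMIs of that tumor alone. Coordinates are from GENCODE for the same build. Alternatives changed the cell filters, the rule, the comparison cells, the scaling, the depth, the gene filter and the clone and tag definitions. The ratio intervals were checked on simulated data. Python 3.11.15 was used with numpy 2.4.6, pandas 2.3.3 and scipy 1.17.1.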

Additional observations from a re-analysis of the deposited data

Results flagged for a closer look

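The combined reference of the library also holds human genes, and 33 UMIs in the 60 Zbtb16-positive cells were assigned to them, or 171 CPM, against 167 CPM in the CD4 comparison cells and 138 CPM in the invariant-chain cells, above the 3 UMIs that a count of 0 would allow.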

How the results depend on the processing

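Ratios of 48 genes gave 665 values under the alternatives, of which 541 stayed within their interval, 105 moved outside it and 19 turned direction, which was counted for ratios at least 2-fold from 1 alone. For 10 gene lists the counts were 86, 53 and 1 of 140, and ratios of the type 1, type 2, innate-like, glucocorticoid and cell cycle lists, all within 2-fold, also crossed 1, with ranges of 0.303 to 1.5, 0.389 to 1.24, 0.945 to 1.2, 0.862 to 1.27 and 0.120 to 1.19. The type 17 and naive lists are not among these 10, and their ratios, given below, crossed 1 as well. The cause was not tested for any of the changes below. Gene counts below are given without the number of genes compared, so they cannot be set against those of the main comparison. A single UMI equals 28.8 CPM in the 9 cells with at least 2 Zbtb16 UMIs. It equals 25.5 CPM in the 11 cells with an alpha contig and 16.6 in the 17 with Cd4, against 5.17 in the 60 cells. With at least 2 Zbtb16 UMIs, 9 cells were left, 739 genes were higher and 533 lower, the Klrb1c ratio was 0, the type 17 ratio 1.35 and the naive ratio 1.03. Ratios of Klra1, Qpct, Xcl1, Klrk1, Drosha, Klrd1, Tcrg-C1, Klrc2 and the NK receptor list were then 0 and that of S1pr1 was 1.51. With a productive alpha contig required, 11 cells were left, 787 genes were higher and 505 lower, the Klrb1c ratio was 3.93 from 1 UMI and the naive ratio 1.13. The ratios of Il4, Drosha, Tcrg-C1 and Klrc2 were then 0 and that of Klrd1 was 0.964. With CD3 and Cd4 required in both groups, 17 cells were left, 456 genes were higher and 467 lower, the naive ratio was 0.910, the Il17rb ratio 0 and the Ccr7 ratio 1.14. With every cell thinned to 1500 UMIs before the rule, 31 cells were left, 545 genes were higher and 590 lower, the Lyz2 ratio was 1.07 and the Il17rb ratio 0. When cells with more detected genes were kept, the naive ratio was 0.702. At a minimum of 60 CPM, 34 genes were higher and 94 lower, and with no minimum 1339 and 6076. Without cells that held an Il2ra or Ikzf2 UMI, an alternative chosen after seeing the data, 297 genes were higher. With at least 2 tag UMIs, 0 of 31 B16 cells were Zbtb16-positive, and no B16-IL33 cell reached that number. Without the most abundant gene of a list the type 17 ratio was 0.704 and the naive ratio 0.626. The 2-fold call was also lost with no turn in other cases, for example for Il18r1 (1.58) with at least 2 Zbtb16 UMIs, for Ly6c2 (1.19), Klf2 (0.577), Id2 (1.78) and Slamf1 (0.868) with an alpha contig, for Ctla4 (0.588) with CD3 and Cd4 required, for Rnf144a (1.70) and Id2 (1.52) with thinning, for Areg (0.610) without Il2ra or Ikzf2 cells and for Mt1 (0.656) and Bnip3 (0.968) with no upper gene limit. Leaving out the top gene of a list, comparison cells with the invariant chain, or the cell with the most UMIs of a gene, was also chosen after seeing the data. No paired analysis was made, since both tumors are in 1 pool and few cells had a tag UMI. The depth of about 1 Zbtb16 UMI per positive cell limits who is counted, and 193308 UMIs limit every ratio of a gene under 30 CPM.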

Other observations

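Of the 3 groups, the invariant-chain cells had the lowest level of cell cycle genes. The list of 8 genes stood at 171 CPM (118 to 240) in the Zbtb16-positive cells, 240 CPM in the CD4 comparison cells and 51.9 CPM (26.8 to 90.6) in the invariant-chain cells. The ratio was 0.710 (0.487 to 1.00) to the CD4 comparison cells and 3.29 (1.66 to 7.0) to the invariant-chain cells. Of 3 genes with enough counts none passed 2-fold against the CD4 comparison cells, with a median ratio of 0.904, and Stmn1, a regulator of microtubules, was the most abundant. Birc5 and Cenpf had no UMI. At least 2 UMIs of these genes were found in 5 of the 60 cells, and the 9 cells with at least 2 Zbtb16 UMIs had a ratio of 0.120 to the CD4 comparison cells.

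Cells of the group were also compared by beta segment, in a split chosen after values were seen. In the 30 cells with TRBV13, TRBV29 or TRBV1, Il4 had 13 UMIs, Ly6c2 stood at 1394 CPM, 15 cells had a gamma-chain transcript and 13 an NK receptor transcript. In the 8 cells with another segment, Il4 had 0 UMIs, Ly6c2 stood at 201 CPM, 1 cell had a gamma-chain transcript and 5 an NK receptor transcript. The 8 cells hold 24856 UMIs, a floor of 121 CPM, so a difference in Il4 was not detectable, and the intervals of the gamma-chain shares, 31.3% to 68.7% and 0.316% to 52.7%, overlap.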
